A study of Mus musculus with 9 samples.

Results

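The Hox genes of the 4 clusters were taken from the RNA-seq table by name, as every gene called Hoxa, Hoxb, Hoxc or Hoxd followed by a number. The rule found 37 of the 19769 genes in the table. Of these, 11 lay in HoxA on chromosome 6, 9 in HoxB on chromosome 11, 9 in HoxC on chromosome 15 and 8 in HoxD on chromosome 2 (mm10). Hoxb1 and Hoxd1 were not analysed here.

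The study asked how single primary mouse embryonic fibroblasts (MEFs) set their level of the transcription factor MYC. RNA was sequenced from Myc-Egfp+/+ MEFs, in which both Myc alleles are fused to GFP. All of these cells received MG-132, a proteasome inhibitor that slows the decay of MYC, at 20 µM for 6 h, and were sorted by GFP into low-MYC and high-MYC cells and plated overnight. Each group has 2 libraries, low-MYC 1 and 2 and high-MYC 1 and 2, which the study describes as technical replicates, so the p-values measure the spread between these 4 libraries, which may be technical, and not between cultures. The MEFs were grown from embryos without heads and viscera, so a culture holds cells from many positions of the body. Nuclease-accessible chromatin was mapped by TACh-seq in wild-type MEFs and in Fubp1 knockout MEFs, transfected with non-target and Fubp2 siRNA respectively (WT and KOKD, 2 samples each, 100 nM for 48 h). The 4 samples share a single table of 4881417 reads with no column for the library, so it was read as 1 pool and WT and KOKD were not compared. It is labelled wt1, so the reads may come from 1 WT library only, and which samples they cover is not known. FUBP1, a protein that binds single-stranded DNA upstream of Myc and regulates it, was mapped by ChIP-seq in 1 sample of primary MEFs, for which peaks on chromosome 15 were analysed.

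Hox genes encode homeodomain transcription factors that give cells their position along the body axis. Within a cluster they are ordered from paralog group 1 at the anterior, 3′ end to group 13 at the posterior, 5′ end, and genes of the same number in different clusters are paralogs. The posterior HoxA and HoxD genes also pattern the limb from shoulder or hip to digits, and Hoxa13 and Hoxd13 act in the hand, foot and genital buds. HoxB and HoxC genes act mainly along the trunk. Fibroblasts keep much of the Hox pattern of their site of origin in culture, held in place by Polycomb repression and Trithorax activation. Below, groups 1 to 3 are called anterior, 4 to 8 central and 9 to 13 posterior.

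The RNA values are fragments per kilobase divided by a score from spike-in RNA that was added per cell (FPK). In each library the FPK of a gene multiplied by its genomic span fell on whole multiples of 1 step, within 0.05 of a whole number for 91.9% of 6474 protein-coding genes with no overlapping neighbour in low-MYC 1. Over all genes, overlapping ones included, 70.8% to 71.9% did so, which makes the read numbers estimates. With the exonic length 12.3% did so in low-MYC 1, so the values behave as reads divided by the span. The read numbers estimated in this way summed to 87700000 to 96300000 per library, of which Hox genes held 22011 to 23983 reads. Where levels of different genes are compared, the FPK was therefore converted to spike-in-normalized fragments per exonic kilobase. Between groups, FPK values were compared with limma wherever the mean over the libraries reached 0.1, which left 11870 genes, and a gene was called at a Benjamini-Hochberg adjusted p under 0.01.

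The highest Hox levels came from a few genes of HoxB, HoxC and HoxD, and the order of the levels differed between the groups. In low-MYC cells the highest level per exonic kilobase was that of Hoxb9, a trunk and rib patterning gene, at 6.28 and 7.01 in the 2 libraries. Hoxc6 followed with 3.98 and 3.88, Hoxc8 with 2.84 and 3.08, and Hoxd13 with 2.27 and 2.41. In high-MYC cells Hoxd13 came first, with 11.4 and 12.99, ahead of Hoxb9 with 9.56 and 10.7. Hoxc6 was then at 6.7 and 6.84 and Hoxc8 at 5.73 and 6.57. The libraries of these neighbours in the order did not overlap, but over all 37 genes 12 of 36 neighbouring pairs overlapped in low-MYC cells and 18 of 36 in high-MYC cells. By the mean over the 4 libraries the lowest levels were those of Hoxc12, Hoxd3, Hoxc11 and Hoxc13, at 0.0406, 0.0521, 0.123 and 0.142.

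Among HoxA genes Hoxa5, which patterns the neck, chest and lung, had the highest mean in both groups, at 1.46 and 1.54 in the low-MYC and 3.04 and 3.64 in the high-MYC libraries per exonic kilobase. In high-MYC cells it was not separate from Hoxa10, at 3.13 and 3.37, and Hoxa7, at 3.05 and 3.11. The median Hox gene stood at 0.682 in the low-MYC and 1.71 in the high-MYC libraries, beside 0.735 and 1.71 over 19589 genes with a known exonic length and 1.49 and 3.46 over protein-coding genes. The median Hox gene was thus about as abundant as the median gene of the table, and less abundant than the median protein-coding gene. At a mean FPK of at least 0.1, 28 Hox genes counted as expressed in the low-MYC and 30 in the high-MYC libraries. Over the 4 libraries together 31 of the 37 reached this mean, beside 11870 of all 19769 genes. Per exonic kilobase 35 did, beside 14375 of 19589 genes, since a long span lowers the FPK. Hoxc5 had a mean FPK of 0.0807 in the low-MYC libraries but stood at 1.31 per exonic kilobase.

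**Figure D1:**
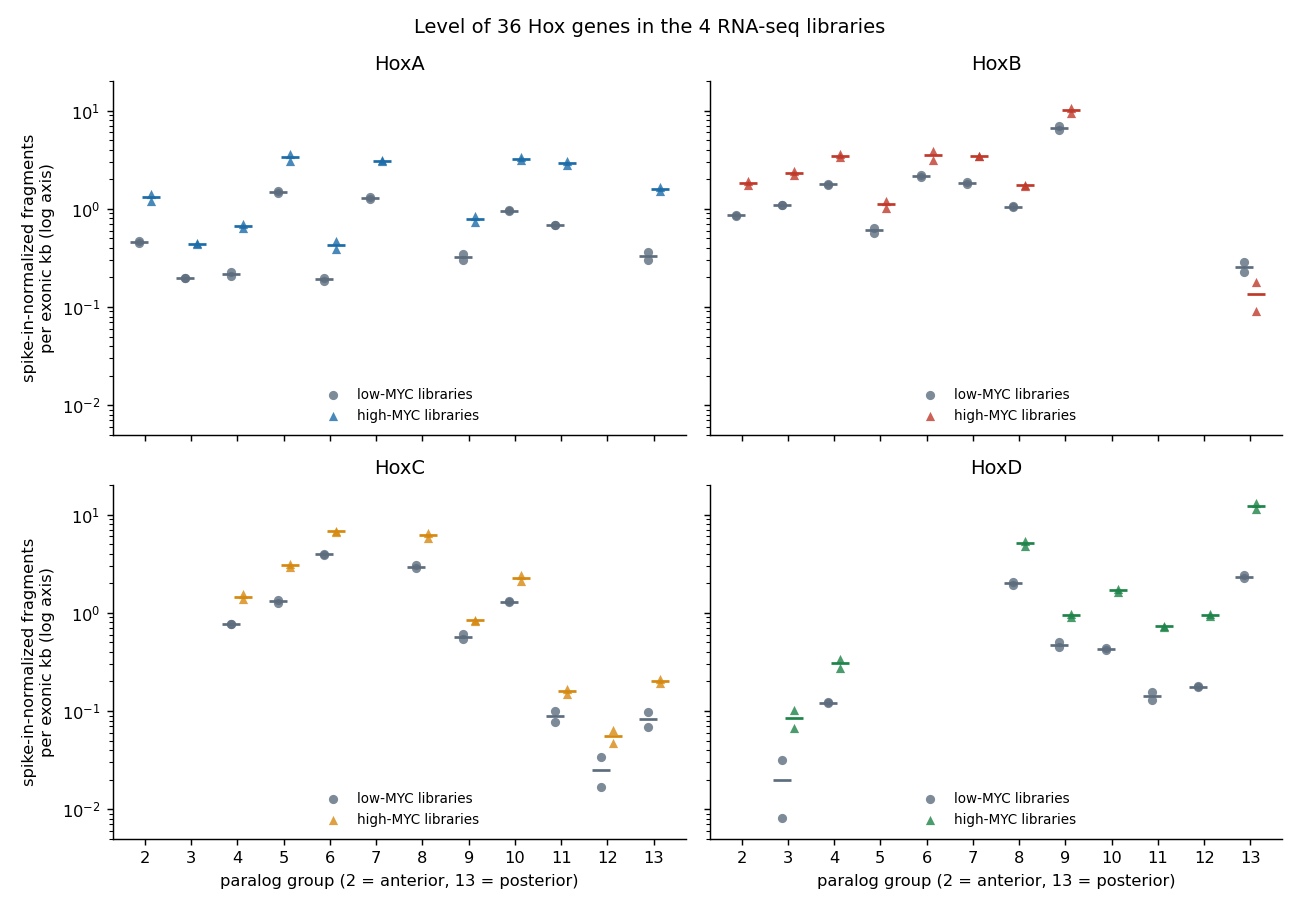
Level of 36 Hox genes in the 4 RNA-seq libraries, in spike-in-normalized fragments per exonic kilobase on a log axis, by paralog group, with 1 panel for each cluster. Circles are the low-MYC and triangles the high-MYC libraries, and bars are the means of the 2 libraries. HoxC levels drop after group 10, HoxD levels are highest at group 13, and Hoxb13 is the 1 gene with both high-MYC libraries below both low-MYC libraries.

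The summed Hox output was nearly constant as a share of all reads, while its division among the clusters was not. Hox genes together took 247 and 249 RPM, the reads of a gene per 1000000 reads of the library, in the low-MYC and 245 and 251 in the high-MYC libraries. HoxD stood at RPM values of 34.9 and 35.4 in the low-MYC and 58.1 and 61.4 in the high-MYC libraries, and HoxA at 44.9 and 45.4 against 54.8 and 55.2. HoxB stood at RPM values of 99.0 and 101 in the low-MYC and 74.5 and 77.3 in the high-MYC libraries, and HoxC at 68.4 and 67.4 against 58.1 and 57.1. In no cluster did the groups overlap. Of the summed Hox level per exonic kilobase, HoxB held 40.5% in the low-MYC and 30.6% in the high-MYC libraries, HoxC 27.4% and 23.2%, HoxA 17.9% and 21.9%, and HoxD 14.2% and 24.4%. These shares are a description, since genes of a cluster are not replicates.

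Per cell, nearly every Hox gene was higher in high-MYC cells, as was nearly every gene. On the spike-in scale 30 of the 31 Hox genes tested rose and none fell, where 97.1% of all genes tested rose and 0.0253% fell (limma). With a change of at least 2-fold required as well, 14 of 31 rose, beside 55.1% of all genes, and 1 did with a pseudocount of 1 in place of 0.1. The median log2 fold change of the Hox genes was 0.92, beside 1.03 for all genes. In bulk libraries, fewer cells of a type and less RNA per cell cannot be told apart. The exception was Hoxb13, a gene of the tail end of the embryo, with FPK values of 0.2 and 0.159 in the low-MYC and 0.128 and 0.0635 in the high-MYC libraries. Its log2 fold change of -0.53 missed the threshold (limma, adjusted p = 0.0268) and was the 1 Hox gene lower at an unadjusted p under 0.05. It rested on an estimated 144, 114, 41 and 18 reads, and it was called lower when low-MYC 1, low-MYC 2 or high-MYC 1 was left out and not when high-MYC 2 was. Hoxc9 was no longer called without low-MYC 2.

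The members untested for low values were Hoxa3, Hoxc11, Hoxc12, Hoxc13, Hoxd3 and Hoxd4. Their ratios of high-MYC to low-MYC means lay between 1.79 for Hoxc11 and 4.26 for Hoxd3. Hoxd3 had an estimated 30, 8, 29 and 39 reads in the 4 libraries, so its ratio rests on few reads. Hoxa3 and Hoxd3 have long spans that overlap their neighbours, which lowers their FPK. Per exonic kilobase Hoxa3 stood at 0.196 and 0.199 in the low-MYC and 0.439 and 0.447 in the high-MYC libraries. Hoxd3 stayed low on that measure too, at 0.0315 and 0.00815 in the low-MYC and 0.0668 and 0.102 in the high-MYC libraries.

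The Hox genes called higher relative to the median gene were posterior HoxA and HoxD genes. The 4 libraries were brought to a common median over the tested genes and the fit was repeated. Of 31 Hox genes, 5 rose relative to the median gene, where 1.76% of all genes did, and 1 fell, where 0.531% did. The 5 were Hoxd13, Hoxd12, Hoxd10, Hoxa11 and Hoxa10, all posterior, and the 1 that fell was the central gene Hoxb8. By value, called or not, 13 of the 31 lay above 0, of which 8 were posterior. The median over all 31 was -0.06 on the log2 scale, beside 0.0 for all genes. By cluster the median was 0.72 in HoxD, 0.18 in HoxA, -0.24 in HoxC and -0.27 in HoxB. All 9 HoxB genes had values below 0, and 5 of 6 HoxC genes did.

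Hoxd13, which shapes the digits, had FPK values of 1.71 and 1.82 in the low-MYC and 8.61 and 9.81 in the high-MYC libraries. The groups were far apart, and the ratio of means was 5.22. Relative to the median gene its log2 fold change was 1.17 (SE 0.046, adjusted p = 0.00258, limma), which ranked 57 from the top of the 11870 genes. Next to it, Hoxd12 went from 0.165 and 0.169 to 0.877 and 0.91, a relative log2 fold change of 0.98 (SE 0.032, adjusted p = 0.00203, limma). Hoxd10, which acts in the hindlimb and its nerves, went from 0.249 and 0.24 to 0.94 and 1.01, a relative log2 fold change of 0.68 (SE 0.037, adjusted p = 0.00479, limma). Between them Hoxd11, a forearm gene, had FPK values of 0.0874, 0.0731, 0.409 and 0.414. Its relative log2 fold change of 0.76 missed the threshold (adjusted p = 0.0112, limma). The gene Gm28309 overlaps Hoxd10 and Hoxd11 on the same strand, so shared reads may not be told apart. At the other end of the posterior group, Hoxd9 had 0.382 and 0.431 against 0.779 and 0.845 and a relative value of -0.15. The relative values of Hoxd10 and Hoxd11 were within their errors of each other, but the pseudocount of 0.1 lowers the values of genes near it. The ratios of means were 5.36 for Hoxd12, 5.13 for Hoxd11 and 3.98 for Hoxd10. With a pseudocount of 0.01 the relative log2 fold changes were 1.2 for Hoxd13, 1.21 for Hoxd12, 1.12 for Hoxd11 and 0.8 for Hoxd10. The fall from Hoxd13 to Hoxd11 thus depends on the pseudocount.

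In HoxA, Hoxa11, the paralog of Hoxd11 in the forearm and in the uterus, had FPK values of 0.423 and 0.419 in the low-MYC and 1.74 and 1.88 in the high-MYC libraries. Its relative log2 fold change was 0.83 (SE 0.031, adjusted p = 0.00245, limma). Hoxa10 went from 0.321 and 0.326 to 1.06 and 1.14, a relative log2 fold change of 0.5 (SE 0.029, adjusted p = 0.00502, limma). Hoxa13 had 0.28 and 0.234 against 1.29 and 1.17, and a relative value of 0.92 that missed the threshold (SE 0.11, adjusted p = 0.0196, limma). Hoxa9 had 0.209 and 0.241 against 0.511 and 0.592, a relative value of 0.09. Hoxa11os, a noncoding gene antisense to Hoxa11, had 0.171 and 0.173 against 0.829 and 0.784 and rose by 0.82 relative to the median gene (adjusted p = 0.00756, limma). The libraries were made with a stranded kit, but whether counting used the strand is not given in the sources used here, so reads of the 2 overlapping genes may not be told apart.

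The 4 tested posterior genes of HoxB and HoxC had relative values below 0, while Hoxc11, Hoxc12 and Hoxc13 were too low to test. Of these, Hoxc13 had a ratio of means of 2.42, on an estimated 94 reads in the low-MYC and 96 in the high-MYC libraries. Hoxb9 had FPK values of 3.15 and 3.51 in the low-MYC and 4.79 and 5.35 in the high-MYC libraries, and a relative log2 fold change of -0.56 (adjusted p = 0.0137, limma). Hoxc9 had 0.17 and 0.151 against 0.239 and 0.232, a relative value of -0.41 (adjusted p = 0.0366, limma). Hoxc10, a hindlimb and lower trunk gene, had 0.482 and 0.491 against 0.9 and 0.795, a relative value of -0.33 (adjusted p = 0.0814, limma). Hoxb13 had the lowest relative value of any Hox gene, -1.18 (adjusted p = 0.0311, limma), 5 from the bottom of all genes tested. None of these 4 passed the threshold. Divided by the exonic length instead of the span, which lets 14375 genes pass the filter, Hoxb13, Hoxb9 and Hoxc9 were called lower and Hoxa13 and Hoxd11 higher.

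**Figure D2:**
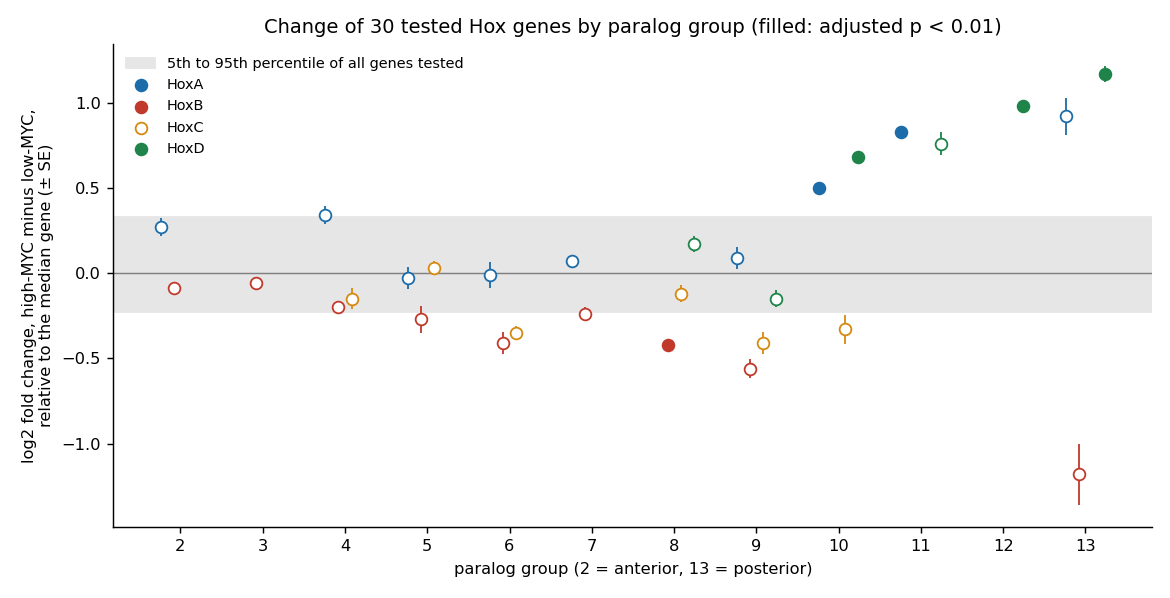
Log2 fold change, high-MYC minus low-MYC, relative to the median gene, of 30 tested Hox genes by paralog group, with the standard error from limma over 4 libraries. Filled points passed an adjusted p of 0.01, and the grey band holds all genes from the 5th percentile (-0.23) to the 95th (0.33). From group 10 on, the HoxA and HoxD genes lie above the band. Of HoxB and HoxC only Hoxb13 and Hoxc10 were tested there, and both lie below it.

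Most central and anterior genes lay nearer the median gene. Hoxb8 had FPK values of 0.809 and 0.817 against 1.32 and 1.36 and fell by 0.42 relative to the median gene (SE 0.031, adjusted p = 0.00806, limma), while per cell it rose by 0.65 on the log2 scale. Hoxb6 had 0.451 and 0.48 against 0.685 and 0.837, a relative value of -0.41 (adjusted p = 0.038, limma). Hoxc6 had 0.704 and 0.685 against 1.18 and 1.21, a relative value of -0.35 (adjusted p = 0.0179, limma). Their HoxA and HoxD counterparts were nearer the median gene or above it. Hoxd8, with 1.59 and 1.72 against 3.99 and 4.5, had a relative value of 0.17, and Hoxa6, with 0.0715 and 0.0663 against 0.168 and 0.141, one of -0.01. The highest relative value among the central genes was 0.34, that of Hoxa4 (adjusted p = 0.0331, limma). Hoxa4 had 0.173 and 0.159 against 0.492 and 0.54. It lies within the span of Hoxa3, so reads of these genes may not be told apart. Of the anterior genes, Hoxa2, which patterns the hindbrain in the embryo, had 0.332 and 0.345 against 0.885 and 1.04, a relative value of 0.27. The central and anterior genes Hoxa5, Hoxa7, Hoxb2, Hoxb3, Hoxb4, Hoxb5, Hoxb7, Hoxc4, Hoxc5 and Hoxc8, had relative values between -0.27 and 0.07. Hoxc5 is annotated over a span that contains Hoxc6, Hoxc8 and Hoxc9 and most of Hoxc10, and how shared reads were split there sets its value.

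The 6 calls relative to the median gene rest on all 4 libraries. Leaving out any 1 of them ended all 6, with adjusted p from 0.0163 to 0.0565, while the relative log2 fold change ranged only from 1.12 to 1.22 for Hoxd13 and from -0.44 to -0.39 for Hoxb8. All 6 calls also ended without the filter on low values, where the lowest adjusted p of them was 0.0111 (limma), and with the replicate number as a block.

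Ratios of 2 Hox genes within a library do not depend on how the libraries are scaled. Per exonic kilobase, Hoxd13 was 7.98 and 10.7 times Hoxb13 in the low-MYC and 62.9 and 144 times in the high-MYC libraries. Hoxa13 was 1.27 and 1.34 times Hoxb13 in the low-MYC and 9.14 and 16.8 times in the high-MYC libraries. Hoxd13 was 0.361 and 0.343 times Hoxb9 in the low-MYC and 1.19 and 1.22 times in the high-MYC libraries. In group 10, Hoxa10 was 0.736 and 0.735 times Hoxc10 in the low-MYC and 1.3 and 1.59 times in the high-MYC libraries. In group 8, Hoxd8 was 1.84 and 1.96 times Hoxb8 in the low-MYC and 2.83 and 3.1 times in the high-MYC libraries. The groups did not overlap for these 5 pairs, but 2 libraries against 2 cannot give an exact two-sided permutation p under 0.333. These pairs join genes whose values are given above, so the ratios restate those values and are not further support. Other pairs were computed, and not all are named. The ratio of Hoxd13 to Hoxa13, by contrast, overlapped between the groups, at 6.28 and 7.97 in the low-MYC and 6.88 and 8.58 in the high-MYC libraries. The ratio of Hoxd11 to Hoxa11 went from 0.226 and 0.191 to 0.257 and 0.241, without overlap. That of Hoxd10 to Hoxa10 went from 0.46 and 0.437 to 0.526 and 0.524, also without overlap. Overlap was also seen for the ratio of Hoxd12 to Hoxd13, at 0.0773 and 0.0744 against 0.0817 and 0.0745, and for that of Hoxc9 to Hoxb9, at 0.0964 and 0.0769 against 0.0891 and 0.0775.

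Promoter sequences from RefSeq (GRCm38.p6, the mm10 assembly) were given for 20 of the 37 members. The 150 bases before the annotated start are shown for posterior HoxA and HoxD genes compared above, and for Hoxb8, which fell relative to the median gene. Capitals mark matches on either strand to the E-box CACGTG, which MYC with its partner MAX can bind, the TATA box TATAAA, the CCAAT box CCAAT and the PBX-HOX motif TGATTNAT.
Hoxd13 upstream, chr2:74668075-74668224, plus strand: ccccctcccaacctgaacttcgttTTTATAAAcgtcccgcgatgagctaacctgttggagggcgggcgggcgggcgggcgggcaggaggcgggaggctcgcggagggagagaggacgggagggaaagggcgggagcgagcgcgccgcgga
Hoxa13 upstream, chr6:52260881-52261030, minus strand: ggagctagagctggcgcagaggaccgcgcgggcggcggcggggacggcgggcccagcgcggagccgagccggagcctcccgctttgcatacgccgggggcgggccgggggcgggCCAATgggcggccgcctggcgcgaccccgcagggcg
Hoxd12 upstream, chr2:74674863-74675012, plus strand: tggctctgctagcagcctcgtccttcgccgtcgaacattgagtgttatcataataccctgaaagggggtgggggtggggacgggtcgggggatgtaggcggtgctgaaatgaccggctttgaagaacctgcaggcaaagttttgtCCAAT
Hoxd11 upstream, chr2:74682173-74682322, plus strand: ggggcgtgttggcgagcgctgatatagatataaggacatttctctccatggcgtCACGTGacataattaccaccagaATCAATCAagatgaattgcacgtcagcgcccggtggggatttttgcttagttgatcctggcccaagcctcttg
Hoxd10 upstream, chr2:74691741-74691890, plus strand: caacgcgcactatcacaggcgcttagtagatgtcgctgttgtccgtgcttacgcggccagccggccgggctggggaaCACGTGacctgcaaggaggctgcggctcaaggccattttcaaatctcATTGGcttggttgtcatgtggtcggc
Hoxa11 upstream, chr6:52245811-52245960, minus strand: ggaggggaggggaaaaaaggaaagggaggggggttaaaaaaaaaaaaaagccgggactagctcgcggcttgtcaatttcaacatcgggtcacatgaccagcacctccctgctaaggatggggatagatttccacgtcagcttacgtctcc
Hoxb8 upstream, chr11:96281755-96281904, plus strand: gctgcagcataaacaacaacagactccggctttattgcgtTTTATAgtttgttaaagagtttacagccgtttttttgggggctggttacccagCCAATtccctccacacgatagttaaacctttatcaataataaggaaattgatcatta

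The promoters counted include 3 of HoxB genes and 1 of a HoxC gene, so they show mainly HoxA and HoxD, and the 24 windows counted include Hoxb1 and Hoxd1, which are not in the RNA table. Over the whole 300 base windows, from 250 before to 50 after the start, CACGTG was found in 5 of 24 Hox promoters (20.8%, with 9.27% of the promoters of genes in the RNA table). The 5 belong to Hoxd13, Hoxd11, Hoxd10, Hoxd4 and Hoxd1, all in HoxD. The match of Hoxd13 begins 229 bases before the start, outside the stretch shown. Hoxd11 has another window, chr2:74679308-74679607, near its start in the RNA table and not shown, with no match to any motif. The windows of Hoxd12, Hoxd9, Hoxd8 and Hoxd3 held no CACGTG. No HoxA promoter given held one, including those of Hoxa13, Hoxa11 and Hoxa10. TATAAA was found in 4 of 24 (16.7%, with 8.06%), CCAAT in 15 (62.5%, with 37.2%) and TGATTNAT in 2 (8.33%, with 1.7%). A retinoic acid element, 2 copies of AGGTCA 5 bases apart, was found in 0 of 24. The windows of Hoxa13 and Hoxd13 held 45 and 37 CG pairs, where the median Hox promoter had 14.5. A match describes letters and is not a bound site.

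Accessible chromatin was listed at most Hox start sites, but at fewer of the posterior ones. Reads lay within 1 kb of the start given in the RNA table for 26 of 37 Hox genes (70.3%), beside 60.3% of all genes of the table and 84.9% of expressed protein-coding genes. The table lists reads only within separate stretches, so a value of 0 means that no such stretch reached the window. The Hox median was 56 reads, beside 91 for all genes and 142 for expressed protein-coding genes. All 6 anterior genes had reads, 13 of 15 central genes and 7 of 16 posterior genes. Hoxa7 had 127 (95% Poisson interval 106 to 151, counting error only), Hoxb9 had 121 (100 to 145), Hoxd10 had 95 (76.9 to 116), Hoxa11 had 76 (59.9 to 95.1), and Hoxd12 had 44 (32 to 59.1). Hoxb8 had 12 (6.2 to 21), with the nearest stretch beginning just inside its gene body.

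Hoxd13, Hoxa13, Hoxb13, Hoxd9 and Hoxc10 to Hoxc13 had 0 reads at the start. Thus the Hox gene with the highest RNA level in high-MYC cells was among those without listed reads, as was Hoxc10, at 2.4 and 2.12 per exonic kilobase. For Hoxd13 the nearest stretch, chr2:74671825-74682615 with 236 reads, begins 3′ of the gene's annotated end and covers the starts of Hoxd12 and Hoxd11. Hoxa10, Hoxc4 and Hoxc5 also had 0 at the table's start. At the start of their principal transcript, 5915, 15461 and 46372 bases away, they had 47, 69 and 126. Hoxd4 went the other way, from 78 to 0. By principal starts 28 of 37 genes had reads. Across the 37 genes reads at the principal start and RNA level had a Spearman correlation of 0.376, beside 0.542 across 19573 genes of the table, a description across genes that share libraries. The TACh-seq cells were not sorted by MYC, so the table says nothing of low-MYC against high-MYC cells.

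**Figure D3:**
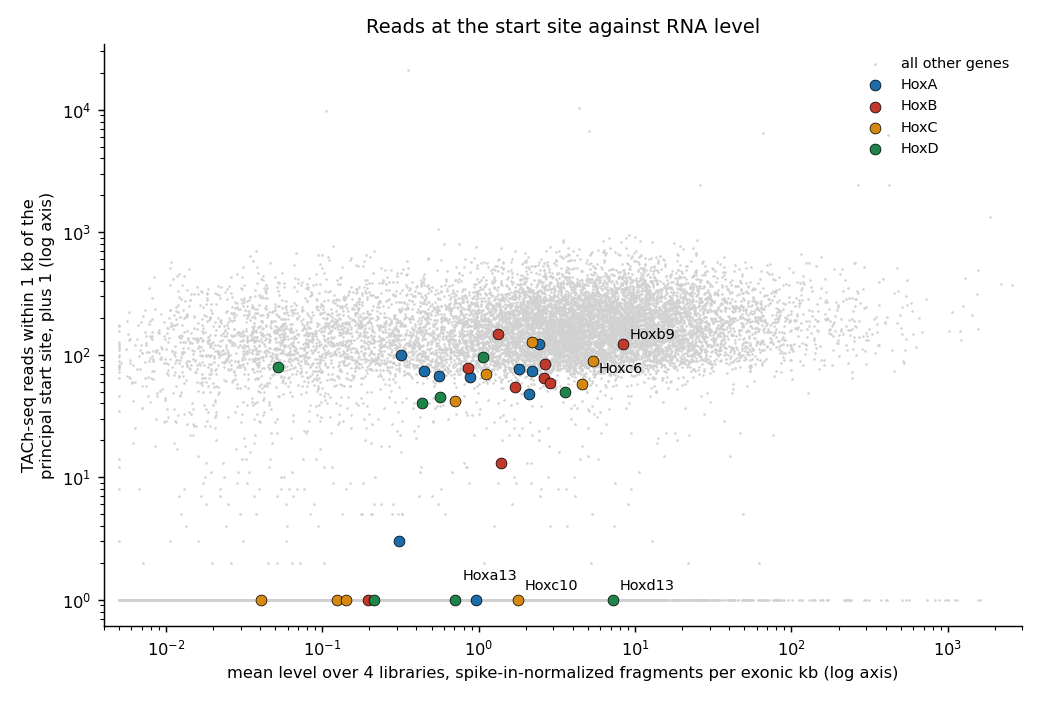
TACh-seq reads within 1 kb of the principal start site, plus 1, against the mean RNA level over 4 libraries in spike-in-normalized fragments per exonic kilobase, both on log axes, with levels under 0.005 drawn at 0.005. Grey points are the other genes and coloured points 36 Hox genes by cluster. Hoxd13 lies on the bottom line with 0 reads, and Hoxb9, at a similar level, has 121.

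Along all 4 clusters, no reads were listed around the most posterior gene, and in HoxD none around Hoxd9 and the 3′ end either. HoxA held 20.3 reads per kb from 5 kb before to 5 kb after its genes, HoxB 15.8, HoxC 12.6 and HoxD 8.17. Stretches of reads, joined across gaps of up to 600 bp, numbered 11 in HoxA, 10 in HoxB, 5 in HoxC and 3 in HoxD and covered 57.4%, 45.2%, 33.7% and 30.6% of these regions. In HoxC the most posterior stretch was chr15:102975076-102982453 at Hoxc9, and none lay over Hoxc10 to Hoxc13. The widest, chr15:102997207-103017409, held 964 reads over the starts of Hoxc6 and Hoxc5. In HoxA the most posterior stretch was chr6:52244972-52248062, at the start of Hoxa11 with 101 reads. In HoxB it was chr11:96257726-96262007, with 156 reads in the interval between Hoxb13 and Hoxb9 and over no Hox gene. Start windows held 48.1% of the reads in HoxD and 42.4% in HoxA, beside 28.9% in HoxB and 29.0% in HoxC. These shares follow in part the length of the windows, which took 18.0 of 90.13 kb in HoxD and 28.2 of 115.3 kb in HoxA. In HoxB they took 23.3 of 169.7 kb and in HoxC 23.3 of 125.8 kb. Per kb of window there were 19.7 reads in HoxD, 35.2 in HoxA, 33.2 in HoxB and 19.7 in HoxC.

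**Figure D4:**
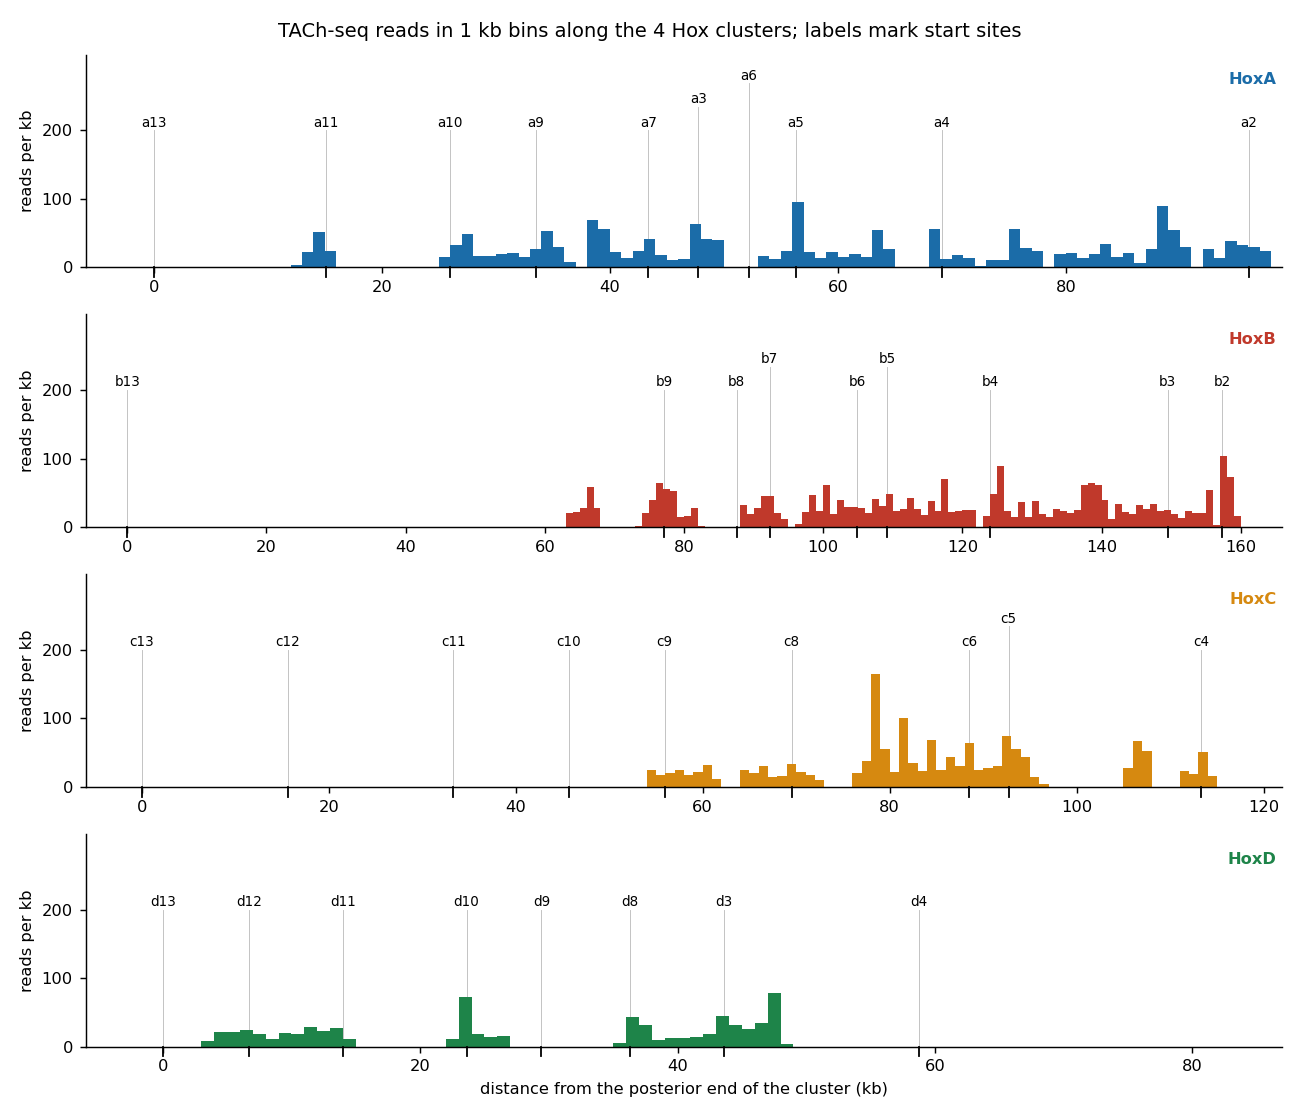
TACh-seq reads in bins of 1 kb along each cluster, by distance from the posterior end in kb, with the length of the axis differing between panels and the HoxA panel ending past a2. Thin lines and labels mark the principal start sites. The bins around a13, b13, c13 to c10 and d13 hold no reads at the start site, and the highest bin lies in the middle of HoxC.

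FUBP1 peaks were looked for at the Hoxc genes, since the peaks analysed lie on chromosome 15. None of the 9 Hoxc genes overlapped any of the 166 peaks, and none had a peak within 5 kb. Of the 762 chromosome 15 genes analysed, 9.71% overlapped a peak, and 7.3% of 178 genes with levels between the median and the highest Hoxc level did. With 9 genes that lie side by side, a count of 0 is a description of 1 region. The nearest peaks were chr15:102502001-102506800, over Map3k12 and 414 kb from Hoxc13, and chr15:103191801-103195400, over Cbx5, a heterochromatin protein gene 155 kb beyond Hoxc4. The 685 kb between them held no peak, and 46 of the 165 gaps between neighbouring peaks on the chromosome were longer.

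The lists of genes that work with the Hox genes or regulate them are read against all genes tested, of which 1.76% rose and 0.531% fell relative to the median gene. At these shares few calls are to be had in lists of this size. Among the TALE cofactors, homeodomain proteins that bind DNA together with Hox proteins, all 9 tested rose on the spike-in scale. Relative to the median gene 0 rose and 1 fell, and the median was -0.03. The 1 that fell was Tgif1, with FPK values of 4.67 and 4.88 in the low-MYC and 8.11 and 8.72 in the high-MYC libraries and a relative log2 fold change of -0.36 (adjusted p = 0.00878, limma). Pbx2 had 1.82 and 1.88 against 4.38 and 4.47, a relative value of 0.08. Of 28 tested Polycomb genes none was called relative to the median gene, with a median of -0.02, and of 18 Trithorax and MLL genes none was, with a median of -0.05. The most negative values in these lists were -0.22 for Phc2, a subunit of Polycomb repressive complex, and -0.38 for Dot1l, a histone methyltransferase (adjusted p = 0.0556 and 0.0111, limma). All 28 and all 18 rose on the spike-in scale.

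In the retinoic acid pathway, whose ligand induces anterior Hox genes, 2 of 9 tested genes rose relative to the median gene and none fell, beside the same 1.76% and 0.531% of all genes. They were the retinoic acid binding proteins Crabp2, with 0.263 and 0.231 against 2.03 and 1.96 and a relative log2 fold change of 1.6 (adjusted p = 0.004, limma), and Crabp1, with 1.05 and 1.05 against 3.09 and 3.41 and one of 0.43 (adjusted p = 0.00836, limma). The receptor genes Rarg and Rara had relative values of 0.22 and -0.15. Among 22 tested positional factors outside the Hox clusters 2 rose, Shox2 and Lhx9, and 1 fell, Emx2, all of which act in limb or girdle, again beside 1.76% and 0.531%. Tbx4, a hindlimb gene, had 0.0494 and 0.0434 against 0.245 and 0.241, a relative value of 0.62, and Foxf1, a gene of visceral mesenchyme, had 0.994 and 0.954 against 1.37 and 1.34, one of -0.65 (both adjusted p = 0.0112 and 0.0111, limma). Prrx1 and Prrx2, limb and trunk mesenchyme genes with the highest levels of this list, had relative values of 0.29 and 0.23. Evx2, the neighbour of Hoxd13 beyond the posterior end of HoxD, had 0.0411 and 0.0352 against 0.152 and 0.19 and a relative value of 0.44 (adjusted p = 0.0343, limma). Of the noncoding genes of the clusters, 11 of 17 listed were in the table and 2 were tested. Hotair, Hoxaas3, Halr1 and Haglr stayed under an FPK of 0.01 in every library. A long span lowers the FPK, and their levels per exonic kilobase are not given here.

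Markers of cell types differed between the groups beside the Hox genes. All 11 fibroblast markers were present, with a summed level per exonic kilobase of 878 and 892 in the low-MYC and 2170 and 2220 in the high-MYC libraries, and 3 of them, Pdgfra, Dcn and Lum, rose relative to the median gene, as 1.76% of all genes did. The summed level of 12 macrophage markers was 1.49 and 2.26 in the low-MYC and 94.4 and 98.4 in the high-MYC libraries, and 9 of the 10 tested rose relative to the median gene, Lyz2 by the most. Of the skeletal muscle markers 1 of 2 tested, Acta1, fell relative to the median gene, as 0.531% of all genes did. On the spike-in scale both rose. In the neural, epithelial, endothelial and chondrocyte lists none of the 3, 1, 1 and 2 genes tested was called relative to the median gene. The endothelial genes Pecam1 and Cdh5 and the epithelial gene Cdh1 stayed under an FPK of 0.01 in every library, but other genes of these lists did not. A long span can lower the FPK this far. The endothelial gene Tek had FPK values of 0.00827 and 0.00975 in the low-MYC libraries but 0.238 and 0.281 per exonic kilobase. Kdr, of endothelium, had 0.161 and 0.162 against 0.251 and 0.293. Krt18, of epithelium, had 0.0769 and 0.0715 against 0.231 and 0.327, and Krt8 had 0.00112 and 0.00224 against 0.0534 and 0.0402. The part of these differences in the Hox values was not tested.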

How the data were processed

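RNA-seq reads were aligned by the authors to the mm10 transcriptome with TopHat and quantified with the Partek E/M algorithm. The deposited signal is FPK divided by the geometric mean of spike-in transcripts. Per the methods FPK is per transcript length, but the values behave as reads divided by gene span. Between-gene levels were therefore multiplied by the span and divided by the union of exons (GENCODE M21). log2(FPK + 0.1) was compared with limma 3.58.1 (lmFit, eBayes with trend, R 4.3.3) in genes with a mean of at least 0.1, as deposited and after rescaling each library to the same median. The fit was tested on simulated data. Overlapping genes and paralogs share reads and are uncertain.

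The TACh-seq file lists 1 read per line with a mapping score, as deposited by the authors, aligned with Bowtie2 per the methods; all reads were counted. FUBP1 peaks were called by the authors with SICER, and the deposited positions have no enrichment or other score. Groups come from the labels. Members and lists were chosen with earlier results of these data known. A few items are not reported here. The rule allowed any member to be named, and from each list the 2 highest levels and the most positive and negative relative changes, of which the text names some; Shox2, Lhx9, Emx2, Pdgfra, Dcn, Lum and the genes named as under 0.01 were added after their values were seen. The alternatives are given in the closing section. Protein sequences were not analysed here.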

Additional observations from a re-analysis of the deposited data

How the results depend on the processing

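On the spike-in scale 29 to 33 Hox genes rose under every alternative fit except a minimum mean of 0.5, where all 22 tested did. At least 2-fold were 14, but 18 with a pseudocount of 0.01 and 1 with a pseudocount of 1. The number that fell was 0, or 1 (Hoxb13) with the replicate block, and 0 to 1 when a library was left out. Relative to the median gene 5 rose and 1 fell. The counts were 0 and 0 without a filter, 6 and 3 at a minimum mean of 0.5, 5 and 0 when rescaled to the same total, and 7 and 6 with the exonic length, an alternative chosen after seeing the data. Leaving out a library leaves 1 library in a group, and the calls ended, as given above. The relative log2 fold change of Hoxd13 then ranged from 1.12 to 1.22 and that of Hoxb8 from -0.44 to -0.39. Apart from the replicate block, given next, the remaining alternatives moved these counts by less than 1.5 times. Of all genes tested, 209 rose and 63 fell, and these counts were 59 and 6 without a filter, 335 and 202 at a minimum mean of 0.5, 858 and 467 with the exonic length, and 0 to 11 and 0 when a library was left out.

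The replicate numbers of the 2 groups share no stated origin, and the differences between library 1 and 2 of the groups correlated at 0.081 over 11870 genes. With the replicate number as a block, 0 Hox genes rose and 0 fell relative to the median gene, and 0 genes of the whole table were called. At an unadjusted p under 0.05 were 22 of 31 Hox genes, beside 4617 of all 11870 genes tested (limma). The block leaves 1 residual degree of freedom.

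Of the 7 pathway lists together, 5 genes rose and 2 fell relative to the median gene. These counts were 0 and 0 without a filter and with the replicate block, 0 to 0 when a library was left out, 3 and 0 without trend, 7 and 4 at a minimum mean of 0.5 and at the same upper quartile, 4 and 1 at the same total, and 9 and 6 with the exonic length. The relative change was followed under each alternative for Hoxd10 to Hoxd13, Hoxa10, Hoxa11, Hoxa13, Hoxb8, Hoxb9, Hoxb13, Hoxc6 and Hoxc9, and none of these 12 changed sign. The other members, among them those nearest 0, were not followed in this way. The cause of these differences was not tested. Members with an FPK near the pseudocount of 0.1, such as Hoxd11, have understated fold changes, and Hoxb13 rests on few reads. The count of Hox starts with reads and of Hoxc genes with a FUBP1 peak moved by less than 1.5 times under each alternative.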
